A study of Mus musculus with 11 samples.

Results

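In the RNAseq of AML12 cells, a mouse hepatocyte line, 20 annotated genes were read well in every library of the TXNDC5 knockout (KO) and hardly at all in the libraries of the wild-type (WT) and knock-in (KI) cells. They were chosen by their raw counts: at least 50 in each of the 4 KO libraries and at most 15 in each of the 3 WT and 4 KI libraries. Of 21889 annotated genes, 23 met these thresholds, and the 20 described here remained after *Cavin3*, *Cyp26b1* and *Slc10a5*, which belong to groups chosen by name, were left out. Since the counts themselves chose the genes, their levels and fold changes in KO, WT and KI are a description and carry no test. The 20 genes are *Tnxb*, *Thsd4*, *Hpse*, *Ahsg*, *Arsj*, *Sptssb*, *Uroc1*, *Abcg5*, *Aqp5*, *Tmem35a*, *Mrap*, *Lhfp*, *Arhgef16*, *Kazn*, *Klhl31*, *Zbtb7c*, *Zfp532*, *Gm5141*, *Ccdc184* and *Mageh1*.

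All 11 libraries came from AML12, a line set up from hepatocytes of mice that carry a transgene for human transforming growth factor alpha, so every group shares that background. The KO cells were made with CRISPR/Cas9 and a repair plasmid and selected as puromycin-resistant stable clones, and how many clones stand behind the 4 KO libraries (5, 6, 7 and 8) is not given in the sources used here. Their genotype is labelled "TXNDC5 Knockdown". The KI cells (libraries 5, 6, 7 and 8, "TXNDC5 Knockin") were designed to overexpress TXNDC5 from the ROSA26 safe harbour, and the WT cells are unedited, with libraries 5-6, 7 and 8, of which 5-6 is a single library. The exposure of the KO cells to puromycin during selection and the edit itself cannot be told apart in KO against WT. Nothing states that replicates of a group are separate cultures, so that p-values measure the spread between these libraries only. *Txndc5* itself had 364, 287, 430 and 408 counts in KO libraries 5 to 8, 3299, 3429 and 4046 in WT 5-6, 7 and 8, and 5654, 6511, 6723 and 5344 in KI 5 to 8. It fell by 3.82 on the log2 scale in KO against WT (SE 0.15, adjusted p = 4.09e-08, quasi-likelihood test in edgeR, adjusted by Benjamini-Hochberg), while the KI libraries lay 0.24 above WT on the same scale (SE 0.12, adjusted p = 0.136), which did not pass the test. Each raw *Txndc5* count in KI (5344 to 6723) thus lay above each one in WT (3299 to 4046), but the scaled difference was not called. Its size depends on how libraries are scaled, here by TMM. Scaling by library totals alone shifted the KI against WT fold changes of all genes upwards, from a median of -0.02 to 0.31. The value of *Txndc5* under library totals is not given here.

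TXNDC5 is a protein disulfide isomerase of the endoplasmic reticulum, where secreted and membrane proteins fold. A hepatocyte makes most plasma proteins and exports sterols into the bile, and it keeps many genes of other tissues silent. The 20 genes fall on both sides of that line. *Ahsg*, *Uroc1* and *Abcg5* are typical liver genes, whereas *Tnxb* is best known from connective tissue, *Mrap* from the adrenal gland and *Aqp5* from salivary and lacrimal glands.

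The counts in KO were of modest size and, as the choice required, far from those elsewhere. Summed over the 20 genes, 4343, 4324, 4278 and 5903 counts were found in KO libraries 5 to 8, against 37, 34 and 30 in the WT libraries and 37, 49, 29 and 51 in the KI libraries. Scaled to library size by TMM, the sum was 121.8 to 135.8 CPM, a scale of counts per library size in KO, 1.06 to 1.65 in WT and 0.758 to 1.55 in KI. Between 12 and 15 of the 20 genes were at 0 in each WT library, and between 11 and 15 in each KI library. *Arhgef16*, *Lhfp* and *Mrap* were at 0 in all 7 of them. In bulk RNA, a gene that is on in few cells and one that is weakly on in all cells cannot be told apart.

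**Figure D1:**
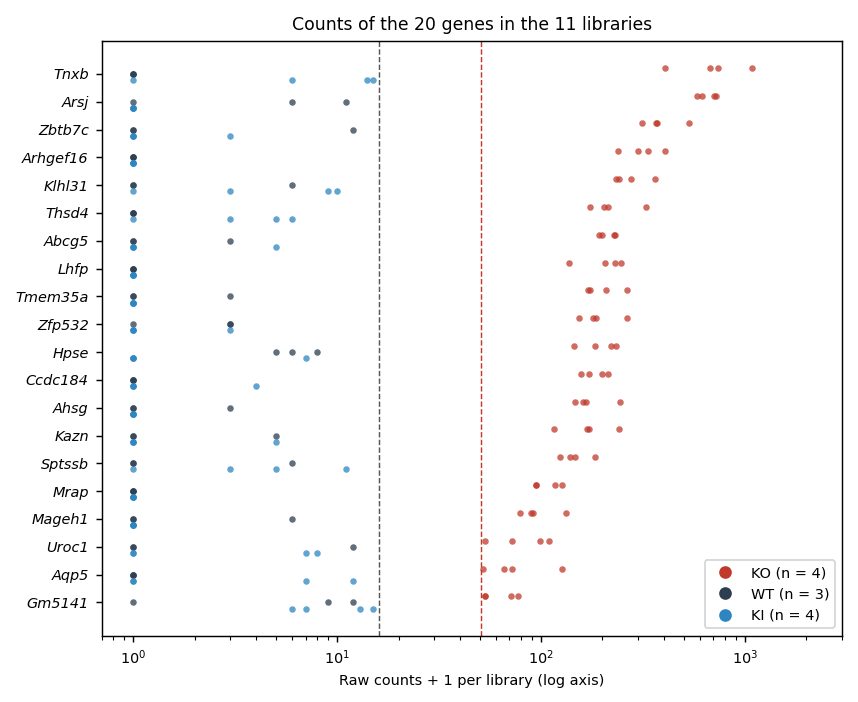
Raw counts plus 1 (log axis) of each of the 20 genes in the 4 KO, 3 WT and 4 KI libraries, 1 point per library; the dashed lines mark the thresholds of the choice, 15 and 50 counts. The KO points reach from 51 counts (*Aqp5*) to 1082 (*Tnxb*), and the WT and KI points lie between 0 and 14.

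The stretch of DNA before the start of a gene holds its promoter. A window from 250 bases before to 50 after the start was found for 17 of the 20 genes (19 windows) in the RefSeq promoters of GRCm38.p6, and none for *Mrap*, *Zbtb7c* and *Zfp532*. The stretches printed here, 5′ to 3′ on the strand of the gene, end at its start and leave out annotated exons. Capitals mark CG, the dinucleotide that can be methylated in mammals. *Tnxb* is shown as the gene with the most counts, *Ahsg*, *Uroc1* and *Abcg5* as the liver genes, and *Hpse* as an example rich in CG. For *Abcg5* the stretch is the 109 bases that separate its start from that of its partner gene *Abcg8* on the other strand.
Tnxb chr17:34670285-34670534, plus strand: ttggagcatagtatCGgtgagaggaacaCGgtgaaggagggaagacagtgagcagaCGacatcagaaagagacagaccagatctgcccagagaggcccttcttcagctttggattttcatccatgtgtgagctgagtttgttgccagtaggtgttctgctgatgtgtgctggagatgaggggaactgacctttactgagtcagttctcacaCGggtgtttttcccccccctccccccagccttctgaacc
Ahsg chr16:22891765-22892014, plus strand: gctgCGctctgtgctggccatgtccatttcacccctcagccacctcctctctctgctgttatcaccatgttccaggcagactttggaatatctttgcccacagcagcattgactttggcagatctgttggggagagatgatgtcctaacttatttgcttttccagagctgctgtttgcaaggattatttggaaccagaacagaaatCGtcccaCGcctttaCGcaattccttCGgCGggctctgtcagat
Uroc1 chr6:90333039-90333283, plus strand: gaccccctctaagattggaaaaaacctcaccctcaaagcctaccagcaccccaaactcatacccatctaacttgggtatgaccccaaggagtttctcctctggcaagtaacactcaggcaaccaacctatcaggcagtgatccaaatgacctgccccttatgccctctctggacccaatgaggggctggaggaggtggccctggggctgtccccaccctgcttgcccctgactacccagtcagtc
Hpse chr5:100719717-100719966, minus strand: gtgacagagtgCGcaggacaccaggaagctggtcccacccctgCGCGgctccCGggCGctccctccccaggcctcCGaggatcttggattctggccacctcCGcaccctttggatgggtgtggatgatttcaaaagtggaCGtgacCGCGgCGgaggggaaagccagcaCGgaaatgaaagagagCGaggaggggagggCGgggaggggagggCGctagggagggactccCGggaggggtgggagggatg
Abcg5 to Abcg8 chr17:84683012-84683120, minus strand: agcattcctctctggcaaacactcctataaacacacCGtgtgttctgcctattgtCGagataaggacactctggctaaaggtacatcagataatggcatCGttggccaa

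These windows did not share a simple feature. *Uroc1* had 0 CG in its 300 bases, *Tnxb* and *Abcg5* 5 each, *Ahsg* 6 and *Hpse* 19, and the range over the 19 windows ended at 46 in *Aqp5*. The median was 7 CG in the 19 windows and also 7 in all 32851 windows of the table. At least 15 CG were found in 7 of the 19 windows and in 34.6% of all windows, and under 5 in 3 of the 19 and in 38% of all. The motif GGGCGG, searched on both strands, was in 9 of 19 windows (47.4%, against 35.7% of all windows), CCAAT in 7 (36.8% against 37.4%) and CANNTG in 14 (73.7% against 72.3%). TATAAA was in 1 window, that of *Abcg5*, TGANTCA in 1, that of *Tnxb*, and TGACNNNGC, the core of the antioxidant response element, in 2, those of *Ahsg* and *Arhgef16* (10.5% against 12.4%). GGAATG was in the window of *Abcg5*, TGATGNAA in that of *Tmem35a* and TGACGTG in that of *Ccdc184*, 1 of 19 each (5.26%), against 14.7%, 3.97% and 2.01% of all windows, and TGACGTCA was in none. TGACGTG, TGACGTCA and TGACNNNGC begin with the same letters, so that 1 stretch may count under several motifs.

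Among the genes of the extracellular matrix, *Tnxb*, tenascin X, a large glycoprotein tied to collagen fibres, had 402, 673, 737 and 1082 counts in KO libraries 5 to 8. It was at 0 in all 3 WT libraries and had 13, 5, 0 and 14 counts in KI libraries 5 to 8, the highest outside KO of the 20 genes together with *Gm5141*. The 4 table entries under its name had 60 to 527 counts per KO library, 0 in WT and 0 to 7 in KI. A pair of these entries had equal counts in every WT and KI library (4, 1, 0 and 7 in KI 5 to 8). The entries may thus hold the same reads and are no separate support. The summed counts of *Tnxb* may hold some reads more than once. Its mean level in KO was 19.6 ± 5.88 CPM (SD, n = 4), at least 162.5-fold above WT if each WT library is given the floor of 3 counts, and 88.6-fold above KI (95% exact interval of the pooled counts 62.6 to 129.7). Such intervals and the floor cover counting error only, and they take each count as a separate event. Where reads were counted more than once, the intervals are too narrow. KO library 5, at 11.3 CPM, lay below the other 3 KO libraries (19.9, 22.1 and 24.9 CPM).

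*Thsd4* codes for an ADAMTS-like protein that binds fibrillin microfibrils, and had 172, 213, 203 and 324 counts in KO, 0 in WT, and 4, 5, 2 and 0 in KI. Its level was 6.17 ± 1.08 CPM in KO (SD, n = 4), at least 51.3-fold above WT. *Hpse*, heparanase, cuts the heparan sulfate chains of matrix and cell surface, and had 232, 144, 183 and 218 counts in KO. It was read in every WT library, at 7, 5 and 4 counts, but in KI only in library 5, at 6 counts. The fold of its KO level (5.32 ± 0.938 CPM, SD, n = 4) was 25.1 over WT (15.3 to 44.1) and 126.8 over KI (58.0 to 346.6).

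The genes around these in the same roles did not move as one. Of the other 12 tested genes in a list of tenascins and matrix glycoproteins, 3 were higher and 7 lower in KO than in WT, with a median log2 fold change of -1.46. Over all 13359 genes tested in this comparison, 55.1% were called in either direction, 26.7% higher and 28.4% lower, with a median of -0.03. *Tnc*, tenascin C, had 0, 4, 0 and 6 counts in KO, 24, 62 and 44 in WT and 488, 361, 388 and 322 in KI. KO was thus the lowest group for *Tnc* and the highest for *Tnxb*. It fell by 4.62 on the log2 scale in KO against WT (SE 0.83, adjusted p = 0.00079, edgeR), and *Postn*, periostin, fell by 6.35 (SE 0.90, adjusted p = 0.000158, edgeR). *Fbln2*, fibulin 2, rose by 1.88 (SE 0.13, adjusted p = 1.27e-06, edgeR). Of 7 tested genes of fibrillin microfibrils, the partners of *Thsd4*, 4 were higher (among them *Adamtsl5* by 1.77, *Ltbp4* by 1.66 and *Ltbp1* by 1.57 on the log2 scale) and 3 lower (among them *Adamtsl4* at -2.44), while *Fbn1*, which codes for fibrillin 1, was at 0 in KO and WT. Of 14 tested heparan sulfate proteoglycans and enzymes, the substrates and neighbours of *Hpse* in its pathway, 3 were higher and 7 lower. *Gpc4*, a glypican, had 47, 49, 48 and 46 counts in KO against 545, 690 and 922 in WT, and *Sdc3*, a syndecan, 369, 310, 317 and 530 against 38, 76 and 116.

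Of the genes with a liver function, *Ahsg* codes for fetuin-A, a plasma protein secreted by hepatocytes. It had 160, 146, 165 and 242 counts in KO, 0, 2 and 0 in WT and 0 in all KI libraries. Its level in KO was 4.83 ± 0.558 CPM (SD, n = 4), 184.0-fold above WT (50.7 to 1522) and at least 57.5-fold above KI. The KO libraries lay close together, and their distance from the libraries of the other groups follows from the choice.

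*Abcg5*, which codes for one of the partner proteins of the exporter of sterols into bile, had 229, 198, 192 and 226 counts in KO, 0, 0 and 2 in WT and 0, 4, 0 and 0 in KI. With 5.81 ± 0.500 CPM (SD, n = 4) it was the steadiest of the 20 genes among the KO libraries, with a coefficient of variation of 8.60%. *Uroc1*, urocanase, which acts in the breakdown of histidine in the liver, had 71, 52, 98 and 108 counts in KO, 0, 0 and 11 in WT and 0, 6, 0 and 7 in KI. All of its WT counts came from library 8, and its fold over WT was 15.4 (8.51 to 31.2).

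The partners of these genes were looked at in the fit of all genes, where the choice had not used them. *Abcg8*, the other protein of the sterol exporter, had 60, 42, 34 and 86 counts in KO, 0 in all 3 WT libraries and 0, 0, 0 and 24 in KI. It missed the choice by the 42 and 34 counts of KO libraries 6 and 7 and the 24 of KI library 8. It was at least 12.3-fold higher in KO than in WT (adjusted p = 0.000158, edgeR) and 9.06-fold higher than in KI (5.93 to 14.4, adjusted p = 0.0128, edgeR). In RefSeq the starts of *Abcg5* and of the upstream form of *Abcg8* lie 110 bases apart on opposite strands, so the 300-base windows of both genes share 209 bases. Of 11 tested genes of sterol transport, 3 were lower in KO than in WT (*Npc1*, *Npc2* and *Nr5a2*) and 3 higher. The higher ones were *Abcg8*, *Abca1* by 1.77 and *Nr1h3*, the sterol-sensing receptor LXR alpha, by 0.71 on the log2 scale. The fall of *Nr5a2* was larger than the rise of *Abca1*. *Abcg2*, a drug exporter of the same family, was at -0.69 (SE 0.20, adjusted p = 0.0133, edgeR), a call lost with library totals in place of TMM (adjusted p = 0.225), without WT library 5-6 (adjusted p = 0.0636) and without WT library 7 (adjusted p = 0.0796).

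In the breakdown of histidine, *Hal*, histidase, which acts just before urocanase, had 92, 90, 30 and 61 counts in KO and 5, 6 and 17 in WT, a rise of 2.35 on the log2 scale (SE 0.57, adjusted p = 0.00502, edgeR). *Amdhd1*, imidazolonepropionase, which acts just after it, had 3, 10, 21 and 10 counts in KO and 59, 57 and 58 in WT, and fell by 2.93 (SE 0.57, adjusted p = 0.00123, edgeR). *Ftcd*, a later enzyme, had 0 to 8 counts in KO and 0 to 4 in WT and was not tested. The enzymes on either side of urocanase thus moved in opposite directions in KO against WT. *Amdhd1* was also called lower in KI against WT.

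*Ahsg* belongs to the hepatocyte markers, and the rest of that list moved in both directions. Of the 13 others, all tested, 9 were higher and 4 lower in KO than in WT, with a median log2 fold change of 0.94. *Apoa1*, an apolipoprotein, had 1004, 563, 905 and 882 counts in KO and 35, 31 and 56 in WT, and rose by 3.82 (SE 0.26, adjusted p = 1.11e-06, edgeR). *Cps1*, the entry enzyme of the urea cycle, had 80, 66, 141 and 135 counts in KO, 4, 0 and 16 in WT and 0, 0, 0 and 5 in KI, and so missed the choice by the 16 counts of WT library 8. *Alb*, albumin, rose by 2.99 (SE 0.26, adjusted p = 5.68e-06, edgeR), and the liver transcription factors *Cebpa* and *Hnf4a* by 1.70 and 1.35. *Ttr*, *Apoe*, *Trf* and *Fgb* were lower, by log2 fold changes of -0.93, -1.34, -1.16 and -1.04. The call of *Tat* (1.65, adjusted p = 0.0493, edgeR) was lost with DESeq2's size factors (adjusted p = 0.0529), without a filter (adjusted p = 0.051) and when KO library 5, 6 or 8 or any WT library was left out (adjusted p = 0.0541 to 0.138), and that of *Fgb* with library totals (adjusted p = 0.0524). Summed over the list, the markers came to 6694 to 7892 CPM in KO, 4350 to 6488 in WT and 3182 to 3961 in KI.

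**Figure D2:**
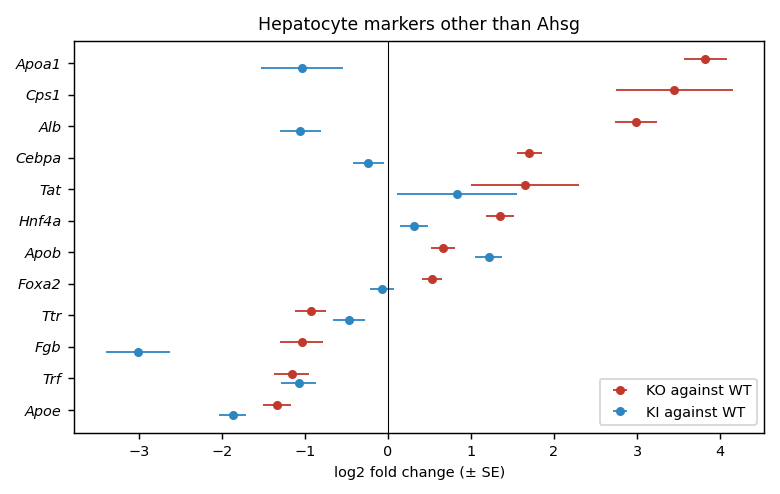
Log2 fold changes (± SE) of 12 hepatocyte markers other than *Ahsg*, KO against WT in red and KI against WT in blue; both comparisons share the WT libraries, and *Cps1* was not tested in KI. In KO, 8 of these markers lie to the right of 0, up to *Apoa1* at 3.82, and 4 to the left.

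Markers of other cell types are given beside this, and their part in the counts of the 20 genes was not tested. The cholangiocyte markers came to 1374 to 1530 CPM in KO, 3049 to 4418 in WT and 2643 to 3129 in KI, with 1 higher (*Krt19*) and 4 lower of 5 tested, and *Epcam* at 0 in all libraries. Of the latter 4, *Sox9* lost the call with library totals (adjusted p = 0.792, edgeR) and without KO library 5 or 6 or WT library 7 or 8 (adjusted p = 0.0548 to 0.125, edgeR). The 12 markers of stellate cells and fibroblasts together came to 0.308 to 1.15 CPM in KO and 0.580 to 1.86 in WT, with *Col1a2*, *Col3a1* and *Lrat* at 0 everywhere. Endothelial markers summed to at most 0.425 CPM in any library, germ cell markers to at most 0.368 and pluripotency markers to at most 0.235. Skeletal muscle markers reached 0.533 CPM in KO and 3.13 in KI. The macrophage and leukocyte list lay at 377 to 466 CPM in KO and 482 to 669 in WT, with *Clec4f* and *Adgre1* at 0 in all libraries, and the neural list at 1.42 to 2.09 CPM in KO and 13.5 to 16.8 in WT. No list of another cell type was thus higher in every KO library than in every WT library.

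Of the remaining enzymes, *Arsj*, arylsulfatase J, belongs to the enzymes that remove sulfate groups. It had 723, 617, 582 and 700 counts in KO, 10, 5 and 0 in WT and 0 in all KI libraries. Its level was 18.0 ± 1.74 CPM in KO (SD, n = 4), 90.2-fold above WT (54.6 to 161.4) and at least 214.5-fold above KI. Per kilobase of exon it was the highest of the 20 genes, at 4.67 CPM per kb.

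*Sptssb* codes for a small subunit of serine palmitoyltransferase, the first enzyme of sphingolipid synthesis. It had 183, 123, 145 and 138 counts in KO, 0, 5 and 0 in WT and 0, 10, 2 and 4 in KI, a fold of 60.8 over WT (25.9 to 187.9) and of 36.0 over KI (22.0 to 63.5). The other small subunit, *Sptssa*, had 2654, 1976, 2110 and 2229 counts in KO against 2987, 3452 and 2157 in WT, and was lower in KO by a log2 fold change of -0.93 (SE 0.20, adjusted p = 0.00268, edgeR). Of 16 tested genes of sphingolipid synthesis, 3 were higher and 7 lower in KO, the latter including *Ormdl1* and *Ormdl3*, which hold serine palmitoyltransferase back, at -1.11 and -0.96. *Sptlc1*, a further subunit of the enzyme, lay at -0.07 (adjusted p = 0.699, edgeR). The subunit *Sptlc2* was called lower at -0.50 (adjusted p = 0.00415, edgeR), a call lost with library totals (adjusted p = 0.611, edgeR). *Sptlc3* was at 0 in all libraries. Of 10 tested sulfatases and their activator, the family of *Arsj*, 2 were higher and 5 lower, among the latter *Galns*, *Arsg*, *Arsk* and *Arsb* between -1.52 and -1.04.

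Among the channels and transport proteins, *Tmem35a* codes for NACHO, a chaperone that helps nicotinic acetylcholine receptors to assemble. It had 264, 169, 173 and 207 counts in KO, 0, 2 and 0 in WT and 0 in KI. Its level in KO was 5.59 ± 1.22 CPM (SD, n = 4), 209.8-fold above WT (57.9 to 1735) and at least 66.5-fold above KI. The subunits of its receptors were hardly read: 2 of 14 were tested and none was called in KO against WT, and these were *Chrnb1* (233 to 425 counts in KO, 193 to 314 in WT) and *Chrnb2* (33 to 60 in KO, 15 to 24 in WT). *Aqp5*, a water channel of glands and lung, had 65, 71, 51 and 125 counts in KO, 0 in WT and 0, 0, 11 and 6 in KI. Its level in KO, 2.08 ± 0.578 CPM (SD, n = 4), was at least 17.3-fold above WT and 18.0-fold above KI (11 to 31.3).

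A second water channel stood near the thresholds. *Aqp1* had 301, 216, 263 and 269 counts in KO, 10, 3 and 18 in WT and 13, 6, 4 and 0 in KI, and so missed the choice by the 18 counts of WT library 8. Its fold was 17.5 over WT (12.2 to 25.8; log2 fold change 4.12, SE 0.39, adjusted p = 1.15e-05, edgeR). *Aqp1* was named for these same counts near the thresholds, so its fold and p-value are a description. *Aqp9*, a channel of hepatocytes for glycerol, had 29, 21, 10 and 10 counts in KO and 4, 0 and 0 in WT, but 2, 32, 21 and 6 in KI. Its rise in KO against WT (adjusted p = 0.0338, edgeR) was lost without a filter (adjusted p = 0.0685), without WT library 7 (adjusted p = 0.119) and without WT library 8 (adjusted p = 0.0921). The direct neighbours of *Aqp5* on the chromosome, *Aqp2* and *Aqp6*, had 0 counts in every KO library.

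At the cell surface, *Mrap* codes for the accessory protein that carries the receptor for the hormone ACTH to the membrane. It had 116, 93, 125 and 93 counts in KO and 0 in all WT and KI libraries, so that its level of 2.97 ± 0.689 CPM (SD, n = 4) was at least 24.7-fold above WT and 35.4-fold above KI. The receptor itself, *Mc2r*, was at 0 in all 11 libraries. None of the 7 melanocortin receptors and accessory proteins in the table, apart from *Mrap*, had enough counts to be tested. *Lhfp*, which codes for a tetraspan membrane protein, had 205, 245, 136 and 230 counts in KO and 0 in the other 7 libraries, at least 46.5-fold above WT. The KO libraries of both genes lay apart from every other library by construction of the choice.

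Among the genes of the cytoskeleton and its signalling, *Arhgef16* codes for a guanine nucleotide exchange factor, which switches on small GTP-binding proteins. It had 296, 332, 238 and 402 counts in KO and 0 in the 7 other libraries, and its level in KO, 8.63 ± 1.18 CPM (SD, n = 4), was at least 71.7-fold above WT and at least 102.7-fold above KI. *Klhl31*, a kelch-like protein best known from muscle, had 232, 274, 241 and 360 counts in KO, 5, 0 and 0 in WT and 9, 8, 2 and 0 in KI, and its fold over WT was 114.3 (48.8 to 352.6). *Kazn*, kazrin, a protein of desmosomes and keratinocytes, had 115, 167, 170 and 239 counts in KO, 4, 0 and 0 in WT and 0, 0, 0 and 4 in KI. Its counts came from 2 table entries, each with 36 to 133 counts per KO library. These entries had equal counts in every WT and KI library, so some reads may be counted in both.

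Other exchange factors of its family were called in both directions. Of the other 18 tested, 6 were higher and 3 lower in KO than in WT, with a median log2 fold change of 0.24. *Arhgef19* had 71, 85, 120 and 163 counts in KO, 11, 0 and 0 in WT and 40, 20, 40 and 30 in KI, and rose by 4.24 (SE 0.86, adjusted p = 0.00163, edgeR). *Arhgef6* showed the reverse of *Arhgef16*, with 0 in all KO libraries, 19, 22 and 11 counts in WT and 42, 45, 59 and 30 in KI. *Arhgef2* and *Arhgef17* rose by 1.5 and 1.42. Of 23 tested kelch-like genes, 8 were higher and 3 lower. *Klhl13* fell from 1585, 1225 and 1594 counts in WT to 104, 68, 111 and 113 in KO (log2 fold change -4.46, SE 0.19, adjusted p = 6.91e-08, edgeR), and *Klhl33* rose by 2.33 (SE 0.26, adjusted p = 3.39e-05, edgeR). The call of *Klhl41* (1.79, adjusted p = 0.0407, edgeR) was lost without a filter (adjusted p = 0.0813), with the replicate block (adjusted p = 0.0964) and without KO library 5, 6 or 8 or WT library 5-6 or 8 (adjusted p = 0.0659 to 0.124). Of 10 tested genes of desmosomes and the cornified envelope, 3 were higher, among them *Ppl*, periplakin, a binding partner of kazrin, by 1.04, and 3 lower, among them *Ivl*, involucrin, by a log2 fold change of -6.82.

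Of the nuclear factors, *Zbtb7c*, a zinc finger protein with a BTB domain, had 369, 313, 364 and 533 counts in KO, 0, 0 and 11 in WT and 0, 0, 0 and 2 in KI. Its level in KO was 10.7 ± 1.25 CPM (SD, n = 4), 74.1-fold above WT (41.3 to 148.7), and all of its WT counts came from library 8, as with *Uroc1*. *Zfp532*, another zinc finger protein, had 184, 153, 179 and 264 counts in KO, 0, 2 and 2 in WT and 0, 2, 0 and 0 in KI, a fold of 100.6 over WT (39.2 to 370.3). *Gm5141*, a predicted zinc finger gene, had the fewest counts of the 20 genes in KO. It had 76, 52, 52 and 70 counts in KO, 11, 8 and 0 in WT and 5, 6, 12 and 14 in KI, and its folds were 6.79 over WT (4.26 to 11.5) and 6.62 over KI (4.67 to 9.62). Zinc finger genes are many and alike, and counts of *Gm5141* may hold reads of related genes.

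The genes most like *Zbtb7c* in name did not share its pattern. *Zbtb7a* lay at a log2 fold change of -0.01 in KO against WT (adjusted p = 0.963, edgeR) and *Zbtb7b* at 0.41 (SE 0.11, adjusted p = 0.00735, edgeR). Of 39 tested genes named Zbtb, 9 were higher and 10 lower in KO, with *Zbtb45* at 1.5 and *Zbtb4* at -1.15 the farthest from 0.

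Among the rest, *Ccdc184*, a coiled-coil protein with no well known role, had 171, 199, 156 and 211 counts in KO, 0 in WT and 0, 3, 0 and 0 in KI. *Mageh1*, an X-linked member of the MAGE family, had 78, 90, 88 and 131 counts in KO, 0, 5 and 0 in WT and 0 in KI. Their levels in KO were 5.06 ± 0.563 and 2.63 ± 0.339 CPM (SD, n = 4), and the folds over WT were at least 42.0 and 39.9 (17.0 to 123.7).

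Across the set, 120 genes of the table shared the letters of their symbol with *Zbtb7c*, *Arhgef16*, *Klhl31*, *Thsd4*, *Abcg5*, *Hpse*, *Mrap* or *Aqp5*. Of the 87 tested in KO against WT, 27 were higher and 17 lower (50.6%, beside 55.1% of all genes), with a median of 0.14. With library totals in place of TMM, 89.6% of the called relatives were higher in place of 61.4%, and over all genes 72.8% in place of 48.5%. The TMM factors ran from 0.744 to 0.947 in WT and from 1.02 to 1.13 in the other groups, and library totals moved the median of all genes to 0.38. Over the 18 gene lists set for this work, 2 of which hold one of the 20 genes, 52 of 257 other tested genes were higher and 111 lower in KO than in WT, with a median of -0.34. That direction depended on the scaling, since with library totals the share of higher calls was 50% in place of 31.9% and the median 0.05.

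**Figure D3:**
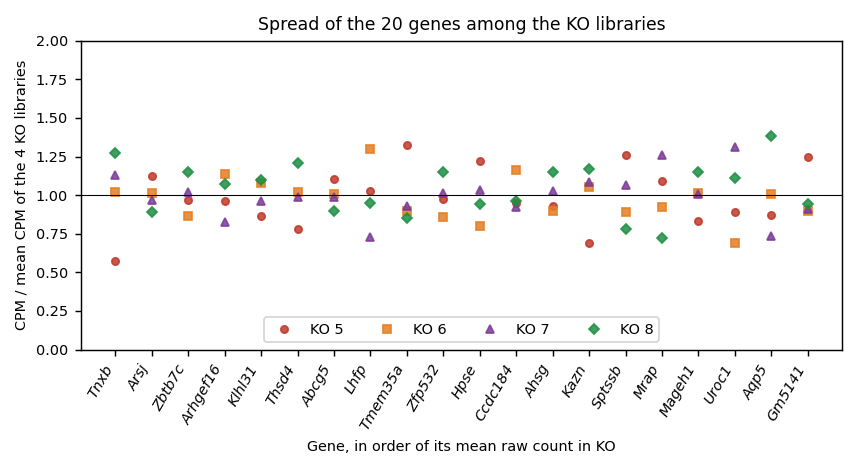
CPM of each of the 20 genes in each KO library, divided by the mean of the 4 KO libraries, with 1 point per library. *Tnxb* spread most, with KO library 5 at the lowest point, and *Abcg5* least.

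Among the KO libraries themselves, the coefficient of variation ran from 8.60% in *Abcg5* to 30.1% in *Tnxb*, with a median of 17.0%, beside 14.5% for the 3596 other annotated genes in the same range of mean CPM. The highest KO library exceeded the lowest by 1.24-fold in *Abcg5* and 2.21-fold in *Tnxb*, with a median of 1.45. Library 8 was the highest in 9 genes, library 5 in 6, library 6 in 3 and library 7 in 2. KO library 5 stood apart from the other 3 over all genes, with a chi-square of 81.1 to 117.8 per gene against 17.2 to 43.2 between the others, and WT library 8 lay farther from the other WT libraries (124.7 and 169.3) than these from each other (56.5). Among the KO libraries, library 5 was the lowest for *Tnxb*, *Klhl31*, *Thsd4*, *Kazn* and *Mageh1* and the highest for *Arsj*, *Abcg5*, *Tmem35a*, *Hpse*, *Sptssb* and *Gm5141*. Without KO library 5, 25 genes would have met the thresholds in place of 20, and without WT library 8 also 25.

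Per kilobase of exon, the scale on which genes can be compared, the 20 genes were weakly expressed in KO. Their levels ran from 0.522 CPM per kb in *Gm5141* to 4.67 in *Arsj*, with a median of 1.78. This placed them between percentiles 24.3 and 46.8 of the annotated genes that had counts in the KO libraries and a known exon length.

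All 20 genes were called higher in KO against WT and in KO against KI, where 26.7% and 27.0% of all tested genes were. This follows from the choice and is no result about them, as is the lack of overlap between the groups, seen in the higher direction in 28.2% and 24.2% of all tested genes. In KO against WT and in KO against KI, each of the 20 genes passed the filter on low counts through the KO libraries alone. In KI against WT, where 42.3% of 13534 genes were called, only *Gm5141* had enough counts to be tested, and it was not called. The fitted log2 fold changes of genes at 0 in a group depend on the prior count, and the folds printed here are therefore ratios of counts or lower bounds.

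The choice has edges, and a few genes lay just outside. *Mpped2* had 59, 48, 65 and 54 counts in KO and 0 in the 7 other libraries, *Iyd* 68, 47, 50 and 66 in KO and at most 4 elsewhere, and *Pogk* 52, 78, 47 and 108 and at most 7. Beyond the other threshold lay *Cps1*, *Aqp1* and *Ces2a*, the last a liver carboxylesterase with 121, 80, 101 and 85 counts in KO, 17, 6 and 7 in WT and 0, 0, 0 and 2 in KI. The nearest inside were *Aqp5* with at least 51 counts in KO, *Uroc1* and *Gm5141* with at least 52, and *Tnxb* and *Gm5141* with up to 14 outside KO. The same thresholds turned around gave 12 genes for WT alone and 12 for KI alone, beside 23 for KO alone. Of the 9219 annotated genes with at most 15 counts in every WT and KI library, 5809 were at 0 in all 11 libraries, and 0.249% reached 50 counts in each KO library.

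**Figure D4:**
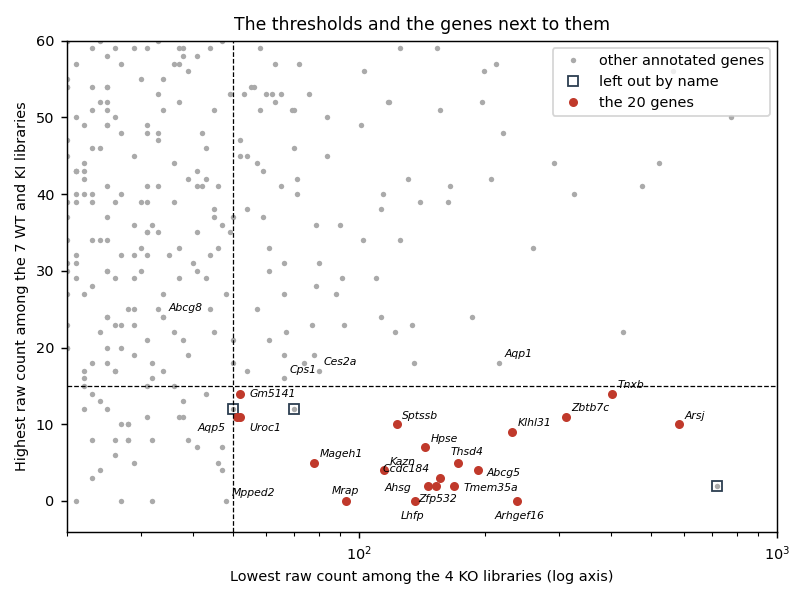
Lowest count among the 4 KO libraries (log axis) against the highest among the 7 WT and KI libraries for annotated genes near the thresholds, which are drawn as dashed lines at 50 and 15; genes above 60 on the vertical axis are not drawn. The 20 genes (red) fill the lower right field together with the 3 left out by name (squares), and *Cps1*, *Ces2a*, *Aqp1*, *Mpped2* and *Abcg8* lie outside it.

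The 20 genes were spread over 11 chromosomes, and no pair of them stood next to each other. On chromosome 3 lie *Arsj*, *Lhfp* and *Sptssb*, and on chromosomes 4, 9, 15, 16, 17, 18 and X lie 2 each. The genes next to them on either side, 40 in all by gene order in RefSeq's GRCm38.p6, were not used by the choice. Of the 29 with enough counts, 11 were higher and 7 lower in KO than in WT (62.1%, beside 55.1% of all genes), with a median log2 fold change of 0.34. With library totals, 85.7% of the called neighbours were higher in place of 61.1%. In KO against KI, 10 were higher and 5 lower of 29 tested, beside 54.0% of all genes in either direction, and in KI against WT 6 and 6 of 28. These comparisons share their libraries pairwise.

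**Figure D5:**
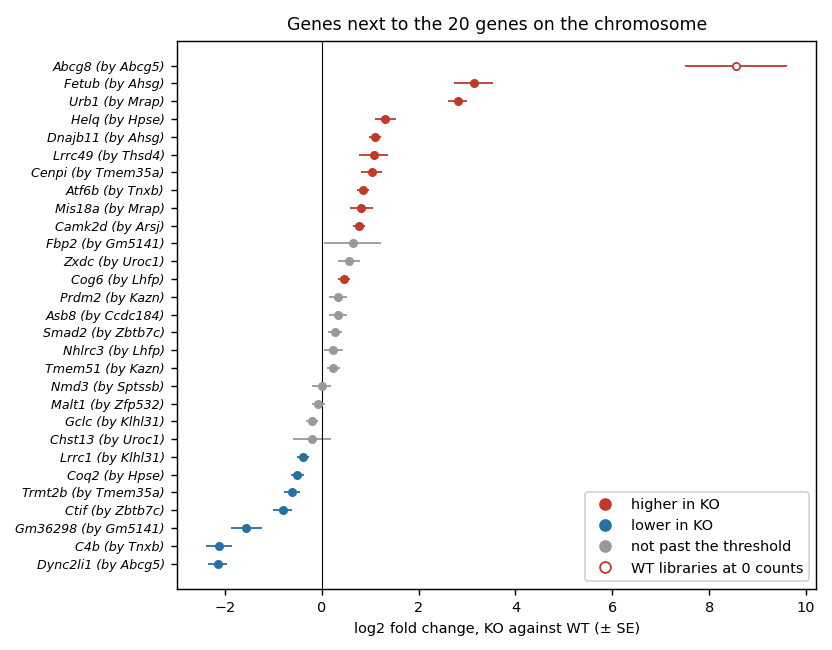
Log2 fold changes (± SE) in KO against WT of the 29 tested genes that stand next to one of the 20 genes; red and blue mark adjusted p under 0.05 (edgeR) and grey the rest. *Abcg8*, whose WT libraries were at 0, is drawn with an open symbol, and *Dync2li1*, on the other side of *Abcg5*, is the lowest at -2.15.

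Next to *Ahsg*, *Fetub*, which codes for fetuin-B, the related plasma protein, had 100, 78, 121 and 154 counts in KO, 6, 6 and 14 in WT and 19, 13, 0 and 0 in KI. It rose by 3.14 in KO against WT (SE 0.40, adjusted p = 8.34e-05, edgeR), or 8.99-fold (6.06 to 13.9), and did not pass in KI against WT (adjusted p = 0.696, edgeR). On the other side of *Ahsg*, *Dnajb11*, a chaperone of the endoplasmic reticulum, had 5155, 4594, 4280 and 5529 counts in KO against 1234, 1539 and 1942 in WT (log2 fold change 1.09, SE 0.12, adjusted p = 3.79e-05, edgeR). Next to *Mrap*, *Urb1*, a nucleolar protein of ribosome assembly, rose by 2.81 (SE 0.20, adjusted p = 1.35e-06, edgeR), with 526, 629, 561 and 962 counts in KO and 62, 59 and 71 in WT, and it also rose in KI against WT by 1.54 (adjusted p = 0.000109, edgeR). *Ahsg* and *Mrap* both lie on chromosome 16, where the median of the other 377 tested genes was 0.49 and 50.9% of them were called higher in KO than in WT, beside 26.7% of all genes. The part of the chromosome in the counts of these genes was not tested. The medians of the other 10 chromosomes lay between -0.36 (chromosome 18) and 0.30 (chromosome 4).

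The other neighbours were called in both directions. *Dync2li1* beside *Abcg5* fell by 2.15 (SE 0.20, adjusted p = 8.3e-06, edgeR), *C4b*, a complement gene beside *Tnxb*, by 2.12 (SE 0.26, adjusted p = 6.05e-05, edgeR), and *Gm36298* beside *Gm5141* by 1.55. *Helq* beside *Hpse*, *Lrrc49* beside *Thsd4* and *Cenpi* beside *Tmem35a* rose by 1.32, 1.07 and 1.04, of which *Lrrc49* lost the call without WT library 7 (adjusted p = 0.0542). In KI against WT, *Helq* and *Cenpi* were higher too, at 0.86 and 1.22 (adjusted p = 0.0109 and 0.00126, edgeR). There *Dync2li1* and *Gm36298* were also lower, at -1.06 and -1.25 (adjusted p = 0.00146 and 0.0129, edgeR). *C4b* and *Lrrc49* were not called in KI against WT (adjusted p = 0.108 and 0.224, edgeR). On both sides of *Arhgef16*, *Aqp5* and *Mageh1* the next genes were too low to be tested. *Prdm16* beside *Arhgef16* and *Otol1* beside *Sptssb* were at 0 in all libraries.

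Exons on the other strand bear on some of the counts, since the sources used here do not say whether the counting kept strand apart. In the GENCODE annotation (vM21, GRCm38), 1943 and 599 of the 7739 exon bases of *Zfp532* lie under exons of 2 antisense genes, 228 of 2108 in *Lhfp* under *Gm42901*, 212 of 3859 in *Arsj* under *Gm17225*, and 62 of 1704 in *Ahsg* under *Gm30505*. *Abcg5* and *Abcg8* share 40 bases and *Tnxb* 3 bases with a pseudogene. Over these bases, reads of a gene and its antisense partner cannot be told apart. The other 14 genes share no exon base with another annotated gene.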

How the data were processed

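RNAseq of 11 AML12 libraries (4 KO, 3 WT, 4 KI) was used. The authors deposited 1 table of raw counts per gene entry, made from oligo(dT)-selected mRNA, with 11 FPKM columns and columns of their own DESeq2 comparisons beside them, and neither of the latter was used here. The submitters' processing notes name HISAT2, TopHat2, Bowtie2 and StringTie, while the counting step, its strand setting and the genome build are not given in the sources used here. Of 26472 lines, 10 with broken fields were left out, and the 26462 entries (2960 of them newly assembled) were summed by gene name to 24849 genes, 21889 of them annotated. Totals were 30380360 to 38422243 counts in KO, 29840366 to 30364098 in WT and 32360709 to 35335070 in KI, and of the entry counts from 1 to 10, 60.2% were even. Each pair of groups was fitted with edgeR 4.0.16 in R 4.3.3 (quasi-likelihood test, TMM, filterByExpr, Benjamini-Hochberg, adjusted p under 0.05), tested on simulated data first. CPM are counts over library size, scaled by TMM over the 11 libraries. Ratios of pooled counts carry exact 95% intervals, and groups at 0 were set to a floor of 3 counts per library. No pair of replicates agreed within counting noise. The 20 genes, the gene lists and the rule for the genes named (all 20, and of neighbours, relatives and lists those with the largest changes past the threshold, plus further list genes for their role) were chosen with earlier results of these data known. Alternatives were DESeq2 (1.42.0) and its size factors, library totals, no filter, single entries, a replicate block and leaving out each library. Same-numbered libraries did not deviate together (correlations -0.19 to 0.21), so they were not treated as pairs. Figures were drawn with matplotlib 3.10.9. Values of some list genes are not reported here.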

Additional observations from a re-analysis of the deposited data

Results flagged for a closer look

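For each of the 20 genes with counts in a group of 4 libraries, the gap in CPM of the highest or lowest library to the nearest other was divided by the range of the group. The choice used the same counts, so the values past Dixon's 95% critical value are a description and no test. In KI, the ratio was 1.0 for 6 genes, each with counts in a single library and 0 in the other 3, a pattern that always gives this ratio. These were *Zbtb7c* (2 counts in KI 8), *Abcg5* (4 in KI 6), *Zfp532* (2 in KI 6), *Hpse* (6 in KI 5), *Ccdc184* (3 in KI 6) and *Kazn* (4 in KI 8). In KO, *Tmem35a* was high in library 5 with 264 counts (0.838), *Ccdc184* in library 6 with 199 (0.856) and *Gm5141* in library 5 with 76 (0.88).

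Entries without an annotated gene were outside the choice, and 3 newly assembled ones met the same thresholds. The first had 207, 211, 157 and 150 counts in KO and 0 in WT and KI. The second had 51, 88, 69 and 80 in KO and 0 elsewhere. The last had 54, 72, 76 and 101 in KO, 11, 15 and 15 in WT and 15, 0, 5 and 11 in KI.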

How the results depend on the processing

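The number of genes chosen moved with the thresholds, from 20 to 35 with at least 30 counts in KO, 11 with at most 5 elsewhere, 44 with at most 30 elsewhere and 3 among the newly assembled entries, and it was 20 to 25 when any library was left out. Thresholds on TMM-scaled counts kept 19 and lost *Gm5141*. Taking the nearest 3 genes on each side, 46 neighbours were called in place of 18. Leaving out any library gave 6161 to 8449 calls in KO against WT (7364 with all), 4276 to 6969 in KI against WT, 6515 to 7230 in KO against KI, 15 to 22 among neighbours, 37 to 53 among relatives and 150 to 177 among the lists. With the replicate block, calls were 8183, 4891 and 6453 in these comparisons, 22 among neighbours, 49 among relatives and 173 among the lists. DESeq2 gave 7784 calls in KO against WT. Library totals in place of TMM turned the direction of *Lrrc1* (0.0211), *Klhl24* (0.40), *Klhl9* (0.35) and *Sptlc1* (0.36). The cause was not tested. Of 185 called genes followed beside the 20, 41 lost the call or direction under at least 1 alternative. The low counts in WT and KI limit each fold of the 20 genes to a wide interval or a lower bound.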
